A study of Mus musculus with 4 samples.

Results

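Troponins and muscle tropomyosins were followed here as 10 genes of the 24637 in the deposited table, taken by their symbols: 3 genes of troponin T (Tnnt1, Tnnt2, Tnnt3), 3 of troponin I (Tnni1, Tnni2, Tnni3), 2 of troponin C (Tnnc1, Tnnc2), and Tpm1 and Tpm2. The study asked how mouse embryonic stem cells (ESCs) that lack Taf4a, the gene of the TFIID subunit Taf4, differentiate towards cardiomyocytes. Polyadenylated RNA was sequenced from 4 libraries, 2 labelled WT (genotype Taf4+/+) and 2 labelled Taf4a-/-, each from an independent ESC line. The lines came from blastocysts of crosses between C57Bl6J Taf4a+/- animals and had been grown on mouse embryonic fibroblast feeders. All were cultured for 5 days as embryoid bodies in medium with fetal calf serum and for 9 more days on gelatin-coated plates. The samples were mixed cultures that were not sorted, so fewer muscle cells and less RNA per muscle cell cannot be told apart.

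The thin filament of striated muscle is a double strand of actin along which tropomyosin lies end to end, with a troponin complex on each tropomyosin. Troponin C binds calcium, troponin I inhibits the interaction of actin with myosin, and troponin T anchors the complex to tropomyosin. Cardiac, slow skeletal and fast skeletal isoforms are encoded by separate genes, and the embryonic mouse heart uses slow skeletal troponin I (Tnni1) together with cardiac troponin I (Tnni3), which replaces it around birth. Tpm1 and Tpm2 are also used by smooth muscle and, as other splice forms, by cells that are not muscle.

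The libraries held 21732746 to 27733034 reads on genes, and the values below are these counts after division by the authors' size factor of each library ("normalized counts"). Every pair of values below gives replicate 1 and then replicate 2. A single read was worth 0.877 and 1.039 normalized counts in WT, against 0.979 and 1.106 in the libraries labelled Taf4a-/-. Taf4a RNA did not follow the labels: it was at 889 and 678 normalized counts in the WT libraries and at 1722 and 1799 in the others, a log2 fold change of 1.18 (SE 0.16, limma, adjusted p = 0.00569). The count covers the whole gene and does not separate the exons removed from the null allele, so it is no check of the deletion, and the genotypes are those of the labels. The paper reports that Taf4a-/- ESCs were identified by PCR and lacked Taf4 protein by immunostaining, which was done on ESCs and not on these cultures. The lines also differed in sex-linked RNA. Xist, which coats an inactivated X, was at 6.14 and 7.27 normalized counts in WT and at 217 and 6470.0 in the libraries labelled Taf4a-/-, and the Y-linked Eif2s3y was at 1688 and 0 against 309 and 0. The parts of these differences in the results were not tested.

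Of the 10 genes, 8 averaged 10 normalized counts or more across the libraries and were compared between the genotypes with limma on log2(normalized counts + 1). With Benjamini-Hochberg adjustment over all genes and a threshold of 0.05, 5 of these 8 were lower in the libraries labelled Taf4a-/- (Tnnt1, Tnnt2, Tnni1, Tnni3 and Tpm2) and 0 were higher. Across all 16926 genes tested, 17.3% were called lower and 11.3% higher. At an unadjusted p-value under 0.05 in the same limma fit, 5 members were lower and 0 higher, against 23.7% and 18.8% of all genes, and limma's voom on the recovered reads called 5 lower and 0 higher, where it called 16.3% and 10.7% of all genes. At an adjusted p under 0.01 all 5 were still called lower, against 6.61% of all genes. The fast skeletal genes Tnnt3 and Tnni2 and the tropomyosin gene Tpm1 were not called, and Tnnc1 and Tnnc2 were too low to be compared. The plot of the members by library shows these 3 patterns side by side.

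**Figure D1:**
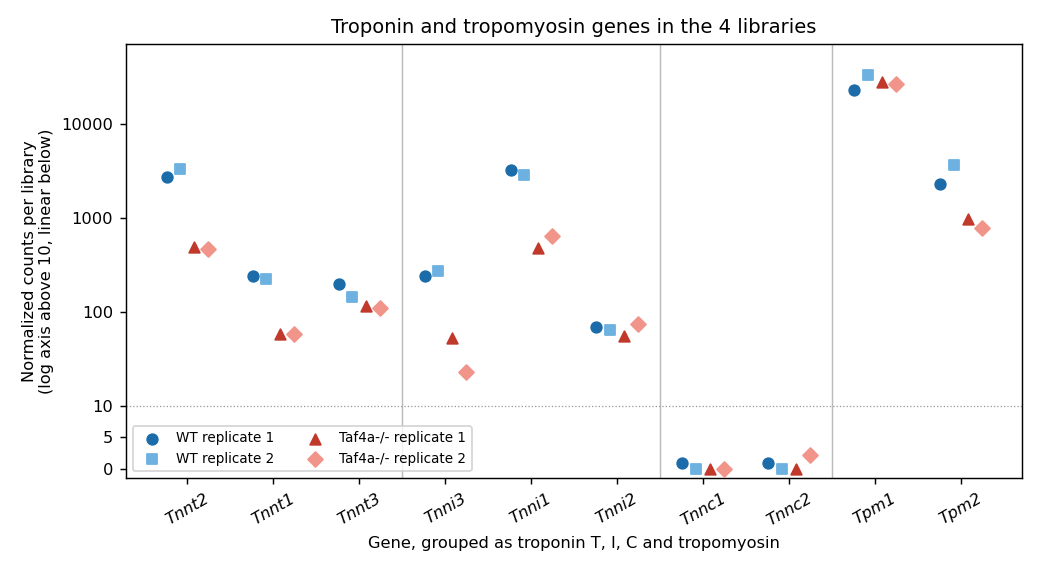
Normalized counts of the 10 genes in each library, on an axis that is logarithmic above 10 and linear below, with 1 symbol per library. Tnnt2, Tnnt1, Tnni3, Tnni1 and Tpm2 lay lower in both libraries labelled Taf4a-/- than in both WT libraries, as did Tnnt3, which was not called (36.6% of all genes lay lower in this way), Tnni2 and Tpm1 overlapped between the genotypes, and Tnnc1 and Tnnc2 had at most 2 reads in a library.

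Troponin T. Tnnt2, the cardiac troponin T gene (ENSMUSG00000026414, NCBI37 chr1:137737452-137748837, plus strand), was at 2730.1 and 3281 normalized counts in WT, against 484 and 470.04 in the libraries labelled Taf4a-/-. Both WT libraries were far above both others, and the gap between genotypes was several times the gap within either. The means were 3006 ± 389.78 and 477 ± 9.58 normalized counts (SD, n = 2 libraries each). The fitted level was 6.27-fold lower, a log2 fold change of -2.65 (SE 0.14, limma, adjusted p = 0.000624), which ranged from -2.78 to -2.52 when each library was left out in turn.

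Tnnt1, the slow skeletal troponin T gene (ENSMUSG00000064179, chr7:4456172-4467984, minus strand), was at 239 and 223 normalized counts in WT and at 58.7 and 58.6 in the libraries labelled Taf4a-/-, so that replicates lay close together on either side. The fitted fall was 3.89-fold, a log2 fold change of -1.96 (SE 0.24, limma, adjusted p = 0.00386). Tnnt3, the fast skeletal troponin T gene (ENSMUSG00000061723, chr7:149684741-149701914, plus strand), was at 197 and 143 normalized counts in WT and at 114 and 109 in the others. Its groups did not overlap, but the WT libraries differed by more than the 143 and 114 that faced each other across the gap. Its log2 fold change of -0.59 (SE 0.26) did not pass, with an adjusted p of 0.135 from limma. Without any test, 36.6% of all genes tested lay lower in both libraries labelled Taf4a-/- than in both WT libraries.

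Troponin I. Tnni1, the slow skeletal gene that the embryonic heart also uses (ENSMUSG00000026418, chr1:137679642-137707566, plus strand), was at 3195 and 2815 normalized counts in WT and at 479 and 635 in the libraries labelled Taf4a-/-. It was 5.43-fold lower in the fit, a log2 fold change of -2.44 (SE 0.17, limma, adjusted p = 0.00115), with means of 3005 ± 269 and 557 ± 110.41 normalized counts (SD, n = 2 each). Tnni3, the adult cardiac gene (ENSMUSG00000035458, chr7:4469907-4475831, minus strand), was at 238 and 271 normalized counts in WT and at 52.9 and 23.2 in the libraries labelled Taf4a-/-, which are 272, 261, 54 and 21 reads. On the log2 scale, the libraries labelled Taf4a-/- differed from each other more here than for any other member called. Tnni3 had a log2 fold change of -2.82 (SE 0.42, limma, adjusted p = 0.00692), or 7.07-fold. Without WT replicate 2 it was -2.73 and no longer passed (limma, adjusted p = 0.0673), and over all alternatives its adjusted p ranged from 0.000205 to 0.0673.

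Tnni2, the fast skeletal troponin I gene (ENSMUSG00000031097, chr7:149627713-149630315, plus strand), was at 69.3 and 63.4 normalized counts in WT and at 54.8 and 75.2 in the libraries labelled Taf4a-/-. The groups overlapped, with both WT values inside the range of the others. The log2 fold change was -0.04 (SE 0.31, limma, adjusted p = 0.928), and its sign turned with other scalings of the libraries, being 0.01 with equal library totals and 0.31 with quantile normalization.

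Tropomyosin. Tpm1 (ENSMUSG00000032366, chr9:66870397-66897213, minus strand, 21 annotated transcripts) encodes the main tropomyosin of the mouse heart and forms used by many other cells. It was at 22473 and 32868 normalized counts in WT and at 27599.5 and 26572 in the libraries labelled Taf4a-/-. The WT libraries lay on either side of the others, and the means of 27670.4 ± 7351 and 27086 ± 726 normalized counts (SD, n = 2 each) were close. The log2 fold change was -0.01 (SE 0.21, limma, adjusted p = 0.988), and it was 0.05 with equal library totals and 0.17 with quantile normalization. The count sums all transcripts of the gene, so striated, smooth and non-muscle forms of Tpm1 were not separated. Tpm2, known from slow skeletal and smooth muscle (ENSMUSG00000028464, chr4:43527583-43536637, minus strand), was at 2257 and 3636 normalized counts in WT and at 976 and 769.76 in the libraries labelled Taf4a-/-. It was 3.3-fold lower in the fit, with a log2 fold change of -1.72 (SE 0.25, limma, adjusted p = 0.00632). Leaving out each library moved it between -2.07 and -1.38, since the WT libraries differed 1.61-fold.

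Troponin C. Neither troponin C gene gave a level. The row of Tnnc1, the troponin C of cardiac and slow muscle (ENSMUSG00000091898, chr14:31983021-32024915, plus strand), held 1 read in WT replicate 1 and 0 in the other libraries. This gene model shares 1041 of its 1051 exon bases, or 99%, with a second model of the same symbol (ENSMUSG00000021909, chr14:32021498-32024915), which has no row in the table. A read that fits more than a single gene model is not counted for either by HTSeq, the counter named in the submitters' processing notes, in its usual modes. Across the annotation, 175 protein-coding genes share at least 95% of their exon bases with another gene, and 4% of them reached a mean of 10 normalized counts, against 66.8% of the 22205 others. The Tnnc1 value is therefore not read as a level of Tnnc1 RNA. Tnnc2, the troponin C of fast muscle (ENSMUSG00000017300, chr2:164602661-164605467, minus strand), held 1 and 0 reads in WT against 0 and 2 in the libraries labelled Taf4a-/-. The model shares 592 of its 800 exon bases, or 74%, with Ube2c on the other strand, and the library kit does not mark strand. Both genotypes were at or under the floor of 3 reads, and no fold is given.

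Levels of different genes were compared per kilobase of merged exons, as normalized counts per kb, and per kilobase of coding sequence where stated. In WT the order was Tpm1 (4267 ± 1133, SD, n = 2), Tnnt2 (2718 ± 352), Tnni1 (1759 ± 157), Tpm2 (1013 ± 335), Tnni3 (132 ± 12), Tnnt3 (127 ± 28.3), Tnnt1 (106 ± 5.16) and Tnni2 (44.3 ± 2.78). Tnni3 and Tnnt3 overlapped between libraries, as did Tnnt3 and Tnnt1, and the other neighbours in this order did not. In the libraries labelled Taf4a-/-, Tpm1 was at 4177 ± 112 normalized counts per kb and Tnnt2 next at 431 ± 8.66. Tnni1 (326 ± 64.6) and Tpm2 (300.06 ± 50.1) followed and overlapped. Tnnt3 (82.9 ± 2.14) and Tnni2 (43.4 ± 9.63) then stood above Tnnt1 (26.9 ± 0.0382) and Tnni3 (19.7 ± 10.9), which overlapped. The fast Tnni2, last in WT, thus came before the slow Tnnt1 and the cardiac Tnni3 here. Parts of the order depend on the length used. Per kilobase of coding sequence, Tnni1 was above Tnnt2 in WT, at 5357 against 3285 normalized counts per coding kb, and Tnnt1 was above Tnnt3, at 275 against 194. In the libraries labelled Taf4a-/-, Tnnt2 then came after both Tnni1 and Tpm2, at 521 against 993 and 677 normalized counts per coding kb.

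The question of cardiac, slow and fast isoforms was addressed as shares within each family, again per kb of merged exons. Tnnt2 made up 90.6% and 93.4% of the troponin T signal in the WT libraries and 79.7% in each library labelled Taf4a-/-. The fast Tnnt3 made up 5.38% and 3.36% in WT and 15.4% and 15.3% in the others. The slow Tnnt1 made up 4.02% and 3.22% against 4.9% and 5.03%. The share of Tnnt3 was higher while its own level was not, since the family total was 2725 and 3176 normalized counts per kb in WT and 549 and 533 in the others.

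Tnni1 was the main troponin I in every library, at 91.7% and 90% in WT and at 81.4% and 85.6% in the libraries labelled Taf4a-/-. The fast Tnni2 took 2.27% and 2.31% in WT and 10.6% and 11.6% in the others, while its own level overlapped between the genotypes. The cardiac Tnni3 took 6.06% and 7.68% in WT against 7.96% and 2.78% in the libraries labelled Taf4a-/-, which enclosed the WT shares. Tpm1 took 81.7% and 80.2% of the Tpm1 and Tpm2 signal in WT and 92.7% and 93.9% in the others. With coding lengths instead, Tnnt2 held a mean of 87.3% in WT against 72.5% in the libraries labelled Taf4a-/-, and Tpm1 held 89.6% and 96.6%, with the same directions.

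**Figure D2:**
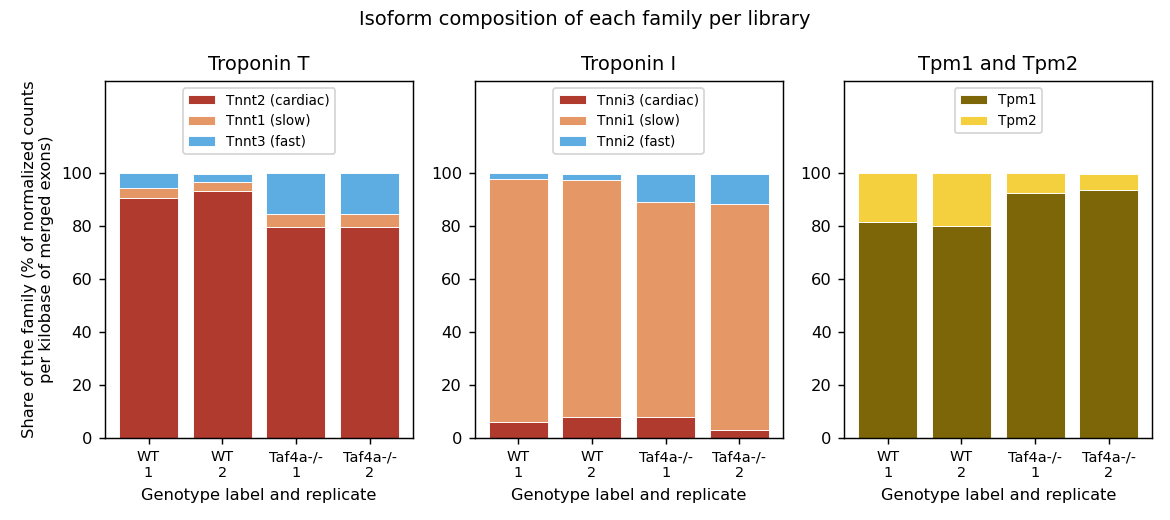
Share of each isoform in its family, in percent of normalized counts per kb of merged exons, with 1 bar per library. The fast Tnnt3 and Tnni2 (top segments of the first and second panels) took at most 5.38% and 2.31% in WT and at least 15.3% and 10.6% in the others, and Tpm1 at most 81.7% and at least 92.7%.

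The same contrasts were computed within each library as log2 ratios of normalized counts + 1, and compared between genotypes for 7 pairs of isoforms. These ratios are not divided by length, so their differences between genotypes can be read but not which isoform of a pair is the more abundant. With 2 libraries against 2, an exact permutation test (two-sided) cannot give a p below 0.333, so a p of 0.333 here only says that the groups did not overlap. The ratio of cardiac to fast troponin T, Tnnt2 to Tnnt3, was 3.78 and 4.51 in WT against 2.08 and 2.09 in the libraries labelled Taf4a-/-, a difference of -2.06 (exact permutation p = 0.333, adjusted over the 7 ratios 0.389). Tnnt1 to Tnnt3 differed by -1.37 and Tnnt2 to Tnnt1 by -0.69, both without overlap between the genotypes. In troponin I, Tnni1 to Tnni2 was 5.51 and 5.45 in WT against 3.10 and 3.06, a difference of -2.40, and Tnni3 to Tnni2 was 1.77 and 2.08 against -0.05 and -1.65, a difference of -2.78. Tpm1 to Tpm2 was 3.32 and 3.18 against 4.82 and 5.11, a difference of 1.72. These 5 ratios had the same exact permutation p of 0.333 as Tnnt2 to Tnnt3. Slow to cardiac troponin I, Tnni1 to Tnni3, was 3.74 and 3.37 in WT against 3.15 and 4.71 in the libraries labelled Taf4a-/-, which overlapped (difference 0.38, exact permutation p = 1). Without the library labelled Taf4a-/- replicate 2 this difference was -0.40, so that library sets its sign.

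Each troponin I gene lies near a troponin T gene on the same strand. Tnni3 and Tnnt1 are 1.92 kb apart with no other gene between them. Tnni1 and Tnnt2 are 29.9 kb apart with Lad1 between them, and Tnni2 and Tnnt3 are 54.4 kb apart with Lsp1 and Gm14492 between them or reaching in. The partners of the first 2 pairs were all called lower, and those of the pair of fast genes were both not called. The log2 ratio of Tnni1 to Tnnt2 was 0.23 and -0.22 in WT against -0.01 and 0.43 in the libraries labelled Taf4a-/-, which overlapped, with a difference of 0.21 (exact permutation p = 0.667). The ratio of Tnni3 to Tnnt1 was -0.01 and 0.28 against -0.15 and -1.30, a difference of -0.86 (exact permutation p = 0.333). It ranged from -1.44 to -0.29 when each library was left out, and was -0.29 without the library labelled Taf4a-/- replicate 2. The ratio of Tnni2 to Tnnt3 differed by 0.54 (exact permutation p = 0.333, range 0.29 to 0.79). Adjusted over these 3 ratios, the smallest p was 0.5.

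The genes around the pairs did not all move with them. On either side of a pair, the nearest gene that averaged 10 normalized counts or more was taken, so genes with lower values were passed over. Lad1, between Tnni1 and Tnnt2, was at 644 and 633 normalized counts in WT and at 419.95 and 286 in the libraries labelled Taf4a-/-, a log2 fold change of -0.88 (SE 0.21, limma, adjusted p = 0.0299), smaller than that of either partner. On one side of this pair Phlda3 was not called (0.13, limma, adjusted p = 0.476). On the other Pkp1, which encodes a desmosomal plakophilin, fell from 40.3 and 60.3 to 6.85 and 4.42 normalized counts, a log2 fold change of -2.95 (limma, adjusted p = 0.00867). Beside Tnni3 and Tnnt1, Ppp1r12c (0.36, adjusted p = 0.0956 from limma) and Syt5 (-0.51, adjusted p = 0.257 from limma) were not called. 6030429G01Rik, which overlaps Tnni3 by 86 exon bases, was higher, with a log2 fold change of 1.13 (limma, adjusted p = 0.0383). These bases are 4.46% of the exon bases of Tnni3. Lsp1, a leukocyte protein gene between Tnni2 and Tnnt3, was lower (-0.66, limma, adjusted p = 0.0129). Around the same pair Gm14492 (0.65, adjusted p = 0.214), Syt8 (1.00, adjusted p = 0.136) and Mrpl23 (0.73, adjusted p = 0.198, all from limma) were not called. The calls of 6030429G01Rik, Lad1 and Lsp1 were each lost under at least 3 alternatives, and that of Pkp1 without WT replicate 2.

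**Figure D3:**
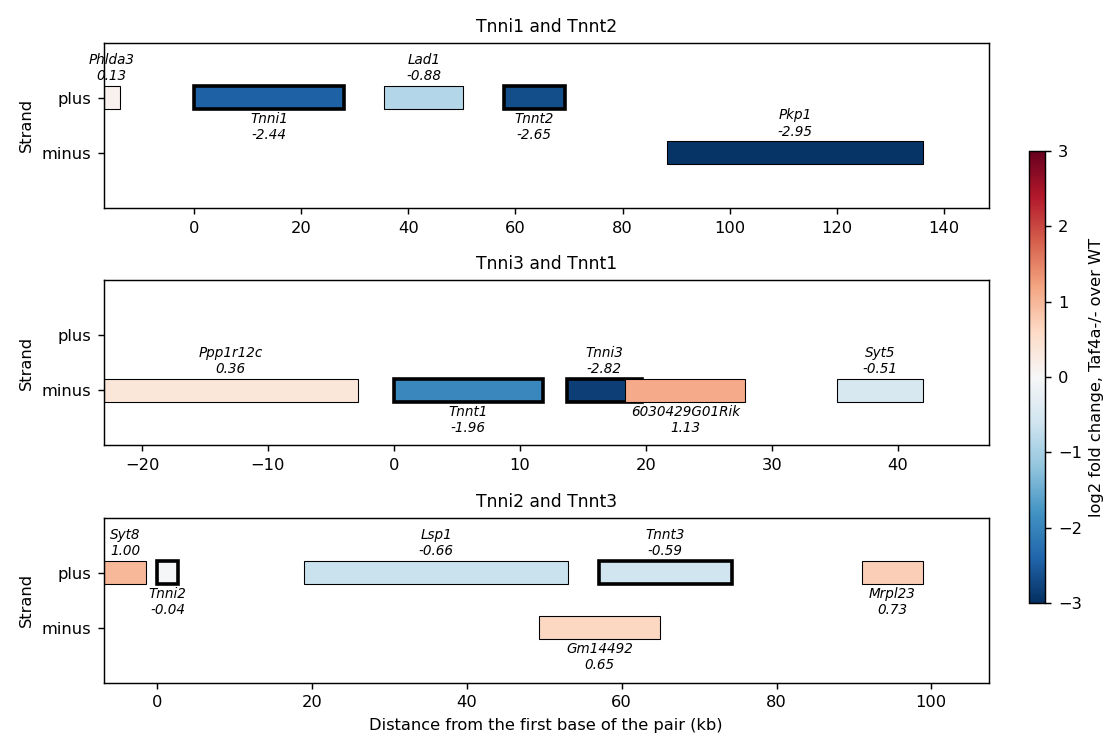
The 3 troponin pairs with their neighbours, drawn to scale by strand as kb from the first base of each pair, with members outlined in bold and the limma log2 fold change as colour and number. Only neighbours that averaged 10 normalized counts or more are drawn. Both members of the Tnni1 and Tnnt2 pair and of the Tnni3 and Tnnt1 pair stood between -2.82 and -1.96, and both members of the Tnni2 and Tnnt3 pair between -0.59 and -0.04.

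Promoters are printed for the 5 genes called lower and for Tpm1, which was not, because members that moved together can be compared there base by base. They are the 150 bases before the annotated start in RefSeq (assembly GRCm38.p6, whose coordinates differ from those above), 5′ to 3′ on the gene's strand, in lower case. Capitals mark matches on either strand to TATAAA, to CATTCC (the M-CAT motif of TEAD factors), to GATAA, or to the CArG box of Srf or the MEF2 site. Tnnt2 and Tnni1 have 2 RefSeq starts each, of which the first is shown. No capitalised match overlapped another.
Tnni1 (chr1:135799271-135799420, plus strand): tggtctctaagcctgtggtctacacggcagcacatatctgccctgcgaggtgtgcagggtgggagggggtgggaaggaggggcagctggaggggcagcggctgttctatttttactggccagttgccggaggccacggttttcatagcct
Tnnt2 (chr1:135836184-135836333, plus strand): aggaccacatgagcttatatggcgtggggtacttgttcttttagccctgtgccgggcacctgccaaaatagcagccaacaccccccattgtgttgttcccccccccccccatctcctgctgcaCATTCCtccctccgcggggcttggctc
Tnni3 (chr7:4522529-4522678, minus strand): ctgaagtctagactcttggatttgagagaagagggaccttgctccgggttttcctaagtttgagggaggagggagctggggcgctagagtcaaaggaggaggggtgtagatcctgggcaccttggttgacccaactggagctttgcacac
Tnnt1 (chr7:4515976-4516125, minus strand): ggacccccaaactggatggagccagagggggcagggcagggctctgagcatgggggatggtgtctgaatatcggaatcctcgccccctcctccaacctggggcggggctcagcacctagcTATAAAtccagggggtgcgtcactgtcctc
Tpm2 (chr4:43523555-43523704, minus strand): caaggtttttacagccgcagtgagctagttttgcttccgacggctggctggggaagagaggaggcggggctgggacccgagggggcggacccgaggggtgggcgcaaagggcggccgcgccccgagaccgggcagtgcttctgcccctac
Tpm1 (chr9:67049214-67049363, minus strand): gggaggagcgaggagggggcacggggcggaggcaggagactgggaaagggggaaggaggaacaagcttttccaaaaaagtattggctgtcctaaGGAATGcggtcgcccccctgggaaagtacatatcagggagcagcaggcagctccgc

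In the 250 bases before the start, 8 of the 10 members had 10 RefSeq entries. Tnnt3 and Tnni2, which were not called, had no entry and were not searched. TATAAA was found in Tnnt1, at 30 bases before the start, and in none of the other entries of members, and 12.4% of the 32841 RefSeq promoters without an undetermined base in this window hold it. CATTCC was found in the first start of Tnnt2 at 27 bases before the start, in Tpm1 at 56 and in Tnnc1 at 58, against 12.6% of all promoters. GATAA was found in the first start of Tnnt2 only, at 245 and 166 bases, outside the stretch shown, against 22.6%. The E-box CANNTG was in every entry, against 66.2% of all promoters, and was left in lower case. The CArG box (1.47% of promoters) and the MEF2 site (0.509%) were in none of them. Tnnt2, which was lower in the libraries labelled Taf4a-/-, and Tpm1, which was not, both held CATTCC, and Tnni1, Tnni3 and Tpm2 held none of the capitalised motifs. A match is only a run of letters, and a window without one says nothing of a factor.

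Other genes of the thin filament and genes taken to act on it, such as Trim55, Trim63, Xirp1 and Cap2, are a list of 23. In the table were 22 of them (Nrap was not), and 19 were tested. Of these, 12 were lower in the libraries labelled Taf4a-/-, 1 was higher and 6 were not called, where 17.3% of all genes tested were lower and 11.3% higher. Their median log2 fold change was -1.91, against -0.01 over all genes tested. The largest falls were those of Actc1, the cardiac actin gene, from 7519 and 6901 to 227 and 399 normalized counts (-4.58, limma, adjusted p = 0.000705), of Xirp1 (-4.00, limma, adjusted p = 0.00125) and of Lmod2, a leiomodin that sets thin filament length (-3.12, limma, adjusted p = 0.0056). Nebl of the heart fell by 2.77 and the pointed-end cap Tmod1 fell by 2.24 on the log2 scale. Neb, the nebulin of skeletal muscle, was higher, at 13.2 and 16.6 normalized counts in WT against 48.9 and 40.9 in the libraries labelled Taf4a-/- (1.53, limma, adjusted p = 0.0322), a call that was lost when WT replicate 2 or either library labelled Taf4a-/- was left out, with an adjusted p from limma of 0.0202 to 0.172 over the alternatives. Acta1, the skeletal actin gene, was at 202 and 380.29 against 197 and 113 and was not called (limma, adjusted p = 0.14).

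The other tropomyosin genes are Tpm3, which encodes the tropomyosin of slow skeletal muscle and forms of non-muscle cells, and Tpm4, known mainly from non-muscle cells. Tpm4 was at 11843 and 14634 normalized counts in WT and at 7890.1 and 8764 in the libraries labelled Taf4a-/-, a log2 fold change of -0.66 (SE 0.15, limma, adjusted p = 0.0247). Over the alternatives its adjusted p ranged from 0.0157 to 0.18, so this call was lost under some of them. Tpm3 was at 3279.8 and 3176 against 3598 and 3424 and was not called (0.12, SE 0.11, limma, adjusted p = 0.436). Of the tropomyosin genes, Tpm2 thus had the lowest log2 fold change, followed by Tpm4, and Tpm1 and Tpm3 were not called.

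**Figure D4:**
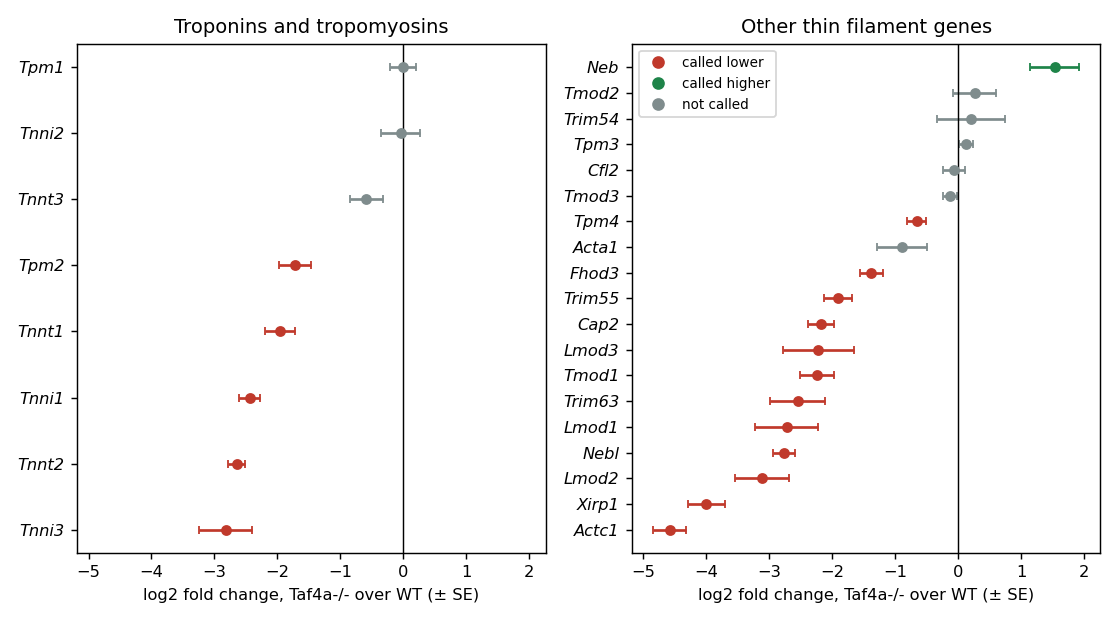
Log2 fold changes (libraries labelled Taf4a-/- over WT) with their standard errors from limma, for the 8 members tested and for 19 other genes of the thin filament or taken to act on it. Colours give the call at an adjusted p under 0.05. The 5 members called lower lay between -2.82 and -1.72, inside the range of -4.58 to -0.66 of the 12 other genes called lower.

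Transcription factors known to act on cardiac or skeletal muscle genes are a further list of 23, of which 22 were in the table (Myf6 was not) and 18 tested. Of these, 7 were lower, 0 higher and 11 not called (17.3% and 11.3% of all genes were called lower and higher), and at an unadjusted p under 0.05 in limma 8 were lower and 2 higher, where 23.7% and 18.8% of all genes were. By voom 7 were lower and 0 higher, against 16.3% and 10.7% of all genes. Tbx5 fell from 324 and 256 to 36.2 and 40.9 normalized counts (-2.87, limma, adjusted p = 0.00203) and Nkx2-5 from 302 and 198 to 50.9 and 28.8 (-2.64, limma, adjusted p = 0.00639). Mef2c (-1.59, limma, adjusted p = 0.00398) and Myocd (-1.74, limma, adjusted p = 0.00381) also fell, and Gata4 (-0.63) and Gata6 (-0.78) by less. The calls of Gata4 and Gata6 were lost under some alternatives, with adjusted p-values from limma of up to 0.189 and 0.0795. Hand1 was at 3649 and 1661 against 4719 and 6754 (1.20, limma, adjusted p = 0.0564) and Hand2 had a log2 fold change of 0.46 (limma, adjusted p = 0.111), and these were the 2 higher without adjustment. Isl1 (0.41, limma, adjusted p = 0.262) and Tbx20 (-0.23, limma, adjusted p = 0.21) were not called either. Tead1, a factor of the M-CAT motif, was at 5763 and 6486 against 5849 and 6495 and was not called. The skeletal muscle factors were near the floor: Myod1 held 6.14 and 1.04 normalized counts in WT and 0 in both others, Myog 9.64 and 5.2 against 0.979 and 2.21, and Myf5 at most 1.11 in a library. Without WT replicate 2, or without the library labelled Taf4a-/- replicate 1, 4 of these genes were called lower in place of 7, while the share of all genes called lower went from 17.3% to 7.22% and 11.7%.

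Markers of several cell types differed between the genotypes, some lists in the direction of the members and some in the other. The counts of called markers below stand against 17.3% lower and 11.3% higher over all genes tested. Of 13 cardiomyocyte markers 12 were lower, with a summed level of 33116 and 31146 normalized counts in WT and of 3839 and 3085 in the libraries labelled Taf4a-/-, and a median log2 fold change of -3.47. RNA of this list was thus found in both genotypes, but not of every marker alike. In the libraries labelled Taf4a-/-, Myh7 was at 1435 and 897 normalized counts, Myh6 at 323 and 431, and Pln at 2.94 and 0. Of 16 skeletal muscle markers 14 were in the table and 5 tested, of which 2 were higher, Mylpf (63.1 and 66.5 against 412 and 573; limma, adjusted p = 0.00151) and Actn3 (limma, adjusted p = 0.0498). Ckm and Myh1 were at 0 in both WT libraries, and the skeletal list summed to 217 and 236 against 626 and 789.67. Most of that difference was Mylpf, and without it the sums were 153 and 169 against 213 and 217. The other 3 genes tested were not called: Mybpc2 (1.03, limma, adjusted p = 0.122), Myh3 (1.31, limma, adjusted p = 0.543) and Mybpc1 (-1.25, limma, adjusted p = 0.272). The call of Actn3 was lost under some alternatives, over which its adjusted p from limma ranged from 0.0199 to 0.289. Mylpf, the fast skeletal regulatory light chain, was higher where its thin filament counterparts Tnnt3 and Tnni2 were not called.

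The 10 smooth muscle markers summed to 34678 and 63969.9 normalized counts in WT and to 22421 and 22164 in the libraries labelled Taf4a-/-, with 6 lower. They also separated the WT libraries, with a median log2 difference of 0.92 between WT replicate 2 and WT replicate 1. Tpm1 and Tpm2 were likewise higher in WT replicate 2, by 0.55 and 0.69 on the log2 scale, and the 6 troponins tested differed by -0.46 to 0.27. Among the cardiomyocyte markers the same difference ran from -1.27 for Myh7 to 0.98 for Nppa, with a median of 0.07. In that list Myh6 (0.49) and Myl4 (0.56) differed by about as much as Tpm1, and Myl2 (-0.82) and Nkx2-5 (-0.60) went the other way. Within the smooth muscle list this difference ran from -0.16 for Synpo2 and 0.01 for Myocd to 2.22 for Myh11, the smooth muscle myosin heavy chain. Other lists differed between the WT libraries as well, with medians of 0.44 for fibroblast and feeder markers and -0.85 for markers of undifferentiated cells. Fibroblast and feeder markers (8 of 9 lower, sums of 429339 and 596692 against 48136 and 60343), macrophage markers (7 of 7 lower, 8599 and 10215 against 179 and 196) and markers of undifferentiated cells (8 of 10 higher, 5847 and 2935 against 17272 and 19429) moved too. The parts of these other cell types in the members' differences were not tested.

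**Figure D5:**
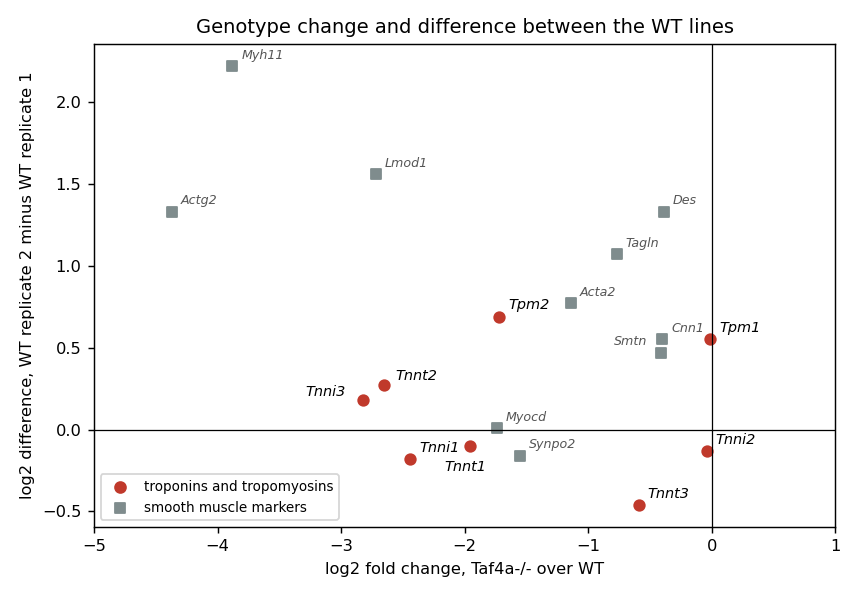
Log2 difference between the WT libraries (replicate 2 minus replicate 1, vertical) against the log2 fold change of the libraries labelled Taf4a-/- over WT (horizontal), for the 8 members tested (circles) and 10 smooth muscle markers (squares). On the vertical axis Tpm1 and Tpm2 stood at 0.55 and 0.69, the 6 troponins between -0.46 and 0.27, and the markers between -0.16 and 2.22, a range that also takes in some troponins. The axes share the WT libraries.

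The genes whose pattern over the 4 libraries was most like that of Tnnt2, among the 12544 genes that averaged 100 normalized counts or more, were Metrnl, Rbm24, Arhgap30, Sfrp2 and Mr1. Their Euclidean distances from Tnnt2, on log2 values centred on each gene's mean, were 0.08 to 0.18. Rbm24, an RNA-binding protein gene of heart and skeletal muscle, was at 539 and 616 normalized counts in WT and at 93 and 95.1 in the libraries labelled Taf4a-/-. Sfrp2, which encodes a secreted Wnt antagonist, was at 2423 and 2628 against 418 and 422. Among the members, Tnni1 came nearest, at rank 73 and a distance of 0.49, and Tnnt1, Tnni3 and Tpm2 were at ranks 174, 219 and 347. Tnnt3 at rank 2342 and Tpm1 at rank 6092 were far from it. Over 4 libraries in 2 groups this measure mainly orders genes by the size of their genotype difference.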

How the data were processed

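RNA was poly-A selected, prepared with the TruSeq RNA v2 kit, which does not mark strand, and sequenced from 4 libraries. According to the submitters' processing notes, CASAVA 1.8, TopHat 1.3.3, HTSeq 0.5.3p1 and DESeq were used with mm9; the annotation release is not given in the sources used here. The authors deposited normalized counts, that is, read counts per gene divided by a size factor per library, for 24637 genes, written with decimal commas. No other sample had a column in the table. Every value was a whole multiple of the value of 1 read (100% within 0.01 reads), so reads could be recovered, 21732746 to 27733034 per library. The floor of 3 reads covers counting error only.

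The 16926 genes that averaged 10 normalized counts or more were compared with limma 3.58.1 in R 4.3.3 (lmFit, eBayes with a variance trend, 4.17 prior degrees of freedom) on log2(normalized counts + 1) with Benjamini-Hochberg adjustment. Changes of low genes are understated on this scale. Gene models, merged exons and overlaps came from GENCODE vM1 on NCBIM37, which is the build of the files; all 24637 identifiers matched and 99.4% had the same symbol. Promoters came from RefSeq. Plots were made in Python 3.11.15 (matplotlib 3.10.9).

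All members were named. Of the other lists, called genes with the largest changes were named; Nebl, Tmod1, Acta1, Tpm3, Tpm4, Tead1, Gata4, Gata6, Hand1, Hand2, Isl1, Tbx20, the skeletal factors and the markers were named after their values were seen, and so were Rbm24 and Sfrp2 described among the 5 genes nearest to Tnnt2. The members, lists and tests were chosen with earlier results of these data known. Alternatives were other pseudocounts (0.5, 10), no filter or a mean of 50, equal totals, quantile normalization, no variance trend, a replicate block, leaving out each library, coding lengths and an adjusted p under 0.01. After the data had been seen, voom was run on the recovered reads as a further alternative.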

Additional observations from a re-analysis of the deposited data

How the results depend on the processing

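Of 112 log2 fold changes of the 8 members under the alternatives, 103 kept their direction and their side of the threshold, 8 turned and 1 lost its call. The 8 that turned were of genes that were not called: Tnni2 was 0.01 with equal totals, 0.31 with quantile normalization, 0.02 without WT replicate 1 and 0.18 without the library labelled Taf4a-/- replicate 1 (lowest without a library -0.27), and Tpm1 was 0.05 with equal totals, 0.17 with quantile normalization, 0.27 without WT replicate 2 and 0.02 without the library labelled Taf4a-/- replicate 2 (lowest -0.28). The lost call was that of Tnni3 without WT replicate 2 (-2.73, adjusted p = 0.0673 from limma). The members called lower were 4 to 5 when a library was left out, and 5 at an adjusted p under 0.01. Quantile normalization moved the median over all genes to a log2 fold change of 0.11, and gave 2676 genes higher and 2448 lower. All genes called lower were 1741 without the variance trend, 1119 at an adjusted p under 0.01 and 1222 to 3038 without a library; those called higher were 856, 331 and 624 to 2476. Neb, the only other thin filament gene called higher, was not tested with the filter at 50 and not called at an adjusted p under 0.01, so the count was 0, and it was 0 to 1 without a library, while 9 to 11 were lower. Regulators called lower were 4 to 8 and called higher 0 to 1 without a library. The difference of Tnni1 to Tnni3 was -0.40 to 1.16 and that of Tnni1 to Tnnt2 -0.02 to 0.43 without a library. With coding lengths, the shares of Tnnt2 were 87.3% and 72.5% and those of Tpm1 89.6% and 96.6%. The causes of these changes were not tested, except that leaving out a library leaves fewer values.

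Libraries with the same replicate number did not deviate together (correlation 0.01 over genes), and the numbers were taken only as names of libraries. The Y-linked Eif2s3y was at 1688 and 309 normalized counts in both replicates 1 and at 0 in both replicates 2. With the replicate block, 1536 genes were higher and 2657 lower, 5 members were lower, and Neb was not called, so the count of other thin filament genes called higher was 0. A count test by edgeR or DESeq2 was planned but not run on these normalized values; voom, run in their place, called 1813 genes higher and 2753 lower. With 2 lines per genotype, differences between lines and between genotypes are estimated from few values, and no permutation test can pass a threshold.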
